A study of Homo sapiens with 6 samples.

Results

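The insulin-like growth factor (IGF) system was followed here through 10 genes: the binding proteins IGFBP2, IGFBP3, IGFBP4, IGFBP5, IGFBP6 and IGFBP7, the receptors IGF1R, IGF2R and INSR, and the docking protein IRS1. They were taken by name. The platform annotation gives them 12 of the 48107 probes on the array, with IGFBP3 and IGFBP5 on 2 probes each and the others on 1, and all 10 were among the 13022 genes tested. RNA of 2 breast cancer cell lines was measured on 6 Illumina bead arrays: MDA-MB-231, a mesenchymal-like line without hormone receptors, and MDA-MB-453, known as a luminal line with androgen receptor. In MDA-MB-231, 2 arrays carry the label of SETDB1 knockdown with hairpin shRNA-1 and 2 that of control hairpin. In MDA-MB-453, 1 array is labelled SETDB1 knockdown with hairpin shRNA-3 and 1 control, so line and hairpin changed together. All cells were grown in DMEM with serum and antibiotics, and whether a hairpin line was 1 clone or a pool is not given in the sources used here.

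IGF1 and IGF2 bind the receptor tyrosine kinase IGF1R, and IGF2 also binds the insulin receptor INSR. The active receptors phosphorylate IRS1, which recruits phosphoinositide 3-kinase, while the adaptor SHC1 leads to RAS and ERK. The secreted binding proteins hold IGFs away from the receptor or carry them to it until a protease cuts them, and IGF2R, the cation-independent mannose 6-phosphate receptor, has no kinase and takes IGF2 to the lysosome.

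In MDA-MB-231, IGFBP4, IGFBP6, IGFBP7, IGF2R and IGFBP3 were higher on the shRNA-1 arrays, by 5.01-fold for IGFBP4 down to 1.49-fold for IGFBP3. In MDA-MB-453, IGFBP3 was 10.5-fold higher on the shRNA-3 array, and none of the other 9 differed by 2-fold or more. IGFBP2 and IGFBP5 were at or near background in MDA-MB-231 and bright in MDA-MB-453, where IGFBP4, IGFBP6 and IGFBP7 were dim or not detected. Probes of IGF1R and INSR stood close to background in both lines.

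The promoters of members that rose in MDA-MB-231 are shown. These genes shared that direction in this line, but IGFBP3 had a larger difference in MDA-MB-453 than in MDA-MB-231. Windows run from 250 bases before to 50 after the gene's start in RefSeq (GRCh38.p14). The set of windows used here covers 9 of the 10 members and lacks IGFBP7. Capitals mark the E-box CACGTG, the letters to which MYC and MAX bind, the GC box GGGCGG and the TATA box TATAAA, each searched on both strands, so that CCGCCC is a GC box of the other strand, and adjacent GC boxes may overlap. The windows lie at chr7:45921223-45921522 on the minus strand and at chr17:40443200-40443499, chr12:53097417-53097716 and chr6:159968832-159969131 on the plus strand.
IGFBP3: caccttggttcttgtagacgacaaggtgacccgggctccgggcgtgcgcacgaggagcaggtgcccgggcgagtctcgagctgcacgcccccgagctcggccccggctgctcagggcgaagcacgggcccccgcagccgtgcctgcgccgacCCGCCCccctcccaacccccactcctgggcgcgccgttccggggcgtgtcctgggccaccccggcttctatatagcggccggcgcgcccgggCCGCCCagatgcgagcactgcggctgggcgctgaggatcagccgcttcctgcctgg
IGFBP4: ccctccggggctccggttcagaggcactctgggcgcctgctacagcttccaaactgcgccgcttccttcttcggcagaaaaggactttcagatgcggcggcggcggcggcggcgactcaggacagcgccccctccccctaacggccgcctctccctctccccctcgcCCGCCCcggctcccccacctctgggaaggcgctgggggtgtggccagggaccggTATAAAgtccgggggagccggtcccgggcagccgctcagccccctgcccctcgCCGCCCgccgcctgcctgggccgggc
IGFBP6: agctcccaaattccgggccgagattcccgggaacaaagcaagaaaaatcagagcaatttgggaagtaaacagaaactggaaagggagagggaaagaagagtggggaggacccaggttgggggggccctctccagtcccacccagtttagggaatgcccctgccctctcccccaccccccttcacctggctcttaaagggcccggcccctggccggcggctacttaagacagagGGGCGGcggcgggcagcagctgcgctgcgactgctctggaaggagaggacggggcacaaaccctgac
IGF2R: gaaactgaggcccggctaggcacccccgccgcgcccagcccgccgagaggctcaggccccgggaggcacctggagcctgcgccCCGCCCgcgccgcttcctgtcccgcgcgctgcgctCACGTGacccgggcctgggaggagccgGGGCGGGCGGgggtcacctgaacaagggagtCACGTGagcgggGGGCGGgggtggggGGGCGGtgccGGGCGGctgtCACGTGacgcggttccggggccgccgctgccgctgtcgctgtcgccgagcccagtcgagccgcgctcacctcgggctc
The IGF2R window holds 3 E-boxes and 6 GC boxes, and the windows of IGFBP3, IGFBP4 and IGFBP6 hold 0 E-boxes and 2, 2 and 1 GC boxes. IGFBP4 alone of the 4 has a TATA box by these letters. Among 35116 promoter windows, 7.26% hold the E-box, 45% the GC box and 11.5% the TATA box. The number of CG dinucleotides was 36, 30, 12 and 41 in the order printed, against a median of 14 over all windows. A match of letters is a description and not a measured site.

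Each array detected 19230 to 21238 probes and had a median intensity of 47.9 to 60.4, and values below are normalised log2 intensities in which the lowest detected probe of an array stood between 4.77 and 4.91. SETDB1, the histone H3 lysine methyltransferase that the hairpins target, was 7.39 and 7.41 on the control arrays of MDA-MB-231 and 7.28 and 7.20 on those labelled knockdown. The difference of -0.16 ± 0.16 (SE) did not pass the limma test (adjusted p = 0.493; 95% confidence interval -0.53 to 0.22), and in MDA-MB-453 SETDB1 was 8.97 and 8.72. Every direction below therefore rests on the arrays' labels. Of 14 mesenchymal markers with a probe, 14 were detected on both MDA-MB-231 controls and 3 on each MDA-MB-453 array. All 16 luminal markers with a probe were detected on both MDA-MB-453 arrays and 8 or 9 on the MDA-MB-231 controls. Luminal markers moved with the arms of MDA-MB-231: 7 of 16 rose (43.8%) and 1 fell (6.25%), against 19.5% and 19.7% of all genes. KRT19, a keratin, rose from 7.70 to 12.19, and SPDEF, AGR2 and SPINT1, not detected on either control, stood at 9.39, 9.13 and 5.96 on the shRNA-1 arrays. FOXA1 was 8.26 on the controls and was not detected on the shRNA-1 arrays, and PIP, RAB25 and TFAP2B lacked a detected signal in both arms. The luminal list's summed intensity was 4243 to 4787 on the controls, 11127 to 11706 on the shRNA-1 arrays and 67723 to 70693 in MDA-MB-453. Mesenchymal markers moved too: 4 of 14 rose (28.6%) and 1 fell (7.14%). EPHA2, MMP14, PLAU and TGFBI rose by 0.76 to 1.66, and SPARC, at 6.93 on the controls, was not detected on the shRNA-1 arrays. Of 5 white blood cell markers 3 were measured and 1 rose (33.3%), CD14 from 6.39 to 10.44. Summed over all 5, including those not measured, the intensity was 166 to 218 on the controls and 1476 to 1529 on the shRNA-1 arrays. Of 7 fibroblast markers 3 were measured and 1 rose (33.3%), PDGFRB, which was not detected on either control and had a fitted difference of 1.61. The intensity summed over all 7 was 181 to 186 on the controls and 226 to 238 on the shRNA-1 arrays. The part of these shifts in the results below was not tested.

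The first question was which members differed with the SETDB1 hairpin in MDA-MB-231. Of the 10 members, 5 rose, 0 fell and 5 did not pass the limma test (adjusted p below 0.05 over 13022 genes). Among all genes tested, 19.5% rose and 19.7% fell, so that differences were common on these arrays. The median difference was 0.48 over the members and -0.01 over all genes. By 2-fold or more, 4 members and 8.98% of all genes rose.

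IGFBP4 binds both IGFs and blocks their access to the receptor until the protease PAPPA cleaves it. Its normalised log2 level was 9.95 and 9.78 on the control arrays and 12.32 and 12.06 on the shRNA-1 arrays. Both shRNA-1 arrays lay above both controls, and the raw intensities were 1034 and 974.7 against 5129 and 4077. IGFBP4 rose by 2.33 ± 0.18 (SE; 95% confidence interval 1.92 to 2.73; adjusted p = 3.12e-05). It had the largest difference of the 10 members in this line. As the RNA is of whole cultures, more RNA in every cell and more cells that express a gene cannot be told apart, here and below.

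IGFBP6 binds IGF2 in preference to IGF1. Its level was 9.17 and 8.78 on the controls and 11.08 and 10.60 on the shRNA-1 arrays, again without overlap. IGFBP6 rose by 1.87 ± 0.22 (SE; 95% confidence interval 1.37 to 2.37; adjusted p = 3.23e-04), which is 3.65-fold. IGFBP7, a matrix-associated protein with low affinity for IGFs, was 10.48 and 10.23 on the controls and 11.80 on each shRNA-1 array. It rose by 1.44 ± 0.17 (SE; 95% confidence interval 1.05 to 1.84; adjusted p = 3.53e-04), or 2.72-fold, and the intervals of IGFBP6 and IGFBP7 overlapped.

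IGF2R was 10.43 and 10.47 on the controls and 11.63 and 11.72 on the shRNA-1 arrays. The groups did not overlap, and the gap was several times the spread within either. IGF2R rose by 1.23 ± 0.16 (SE; 95% confidence interval 0.85 to 1.60; adjusted p = 6.26e-04). It was the 1 receptor of the 3 that passed the test.

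IGFBP3, the main carrier of IGFs in blood, was 8.51 and 8.76 on the controls and 9.26 and 9.17 on the shRNA-1 arrays. The groups did not overlap, but the gap was smaller than for the 4 genes above. IGFBP3 rose by 0.58 ± 0.17 (SE; 95% confidence interval 0.18 to 0.98; adjusted p = 0.0293). Its other probe read 7.94 and 7.97 against 8.38 and 8.67, a difference of 0.57 ± 0.18 (adjusted p = 0.0358 over all kept probes). The IGFBP3 call was the least firm of the 5: under median scaling the difference was 0.44 (adjusted p = 0.0925), without control replicate 1 it was 0.45 (adjusted p = 0.197), without control replicate 2 0.70 (adjusted p = 0.0677), and without shRNA-1 replicate 1 0.54 (adjusted p = 0.0682).

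IRS1, the docking protein downstream of both receptors, was 9.46 and 9.45 on the controls and 9.42 and 9.96 on the shRNA-1 arrays. Of the shRNA-1 arrays, 1 lay below both controls and 1 above them, and the difference was 0.23 ± 0.21 (SE; 95% confidence interval -0.24 to 0.71; adjusted p = 0.422). IGF1R was 5.02 on both controls, where it was detected, and 4.31 and 4.86 on the shRNA-1 arrays, where it was detected on 1 of 2. The difference of -0.44 ± 0.21 did not pass the test (95% confidence interval -0.92 to 0.04; adjusted p = 0.137), and without shRNA-1 replicate 2 it was -0.71. The spread there came from the controls alone, which were equal. INSR was 4.86 and 4.92 on the controls and 4.74 and 4.46 on the shRNA-1 arrays, where it was not detected (-0.29 ± 0.18; adjusted p = 0.233). The nearness of both probes to background limits what these differences show.

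IGFBP2, which binds IGFs and carries an integrin-binding motif, was not detected on either control (4.33 and 4.34) and was detected on 1 of 2 shRNA-1 arrays (4.54 and 4.90). Its difference of 0.39 ± 0.18 did not pass the test (adjusted p = 0.132), and without shRNA-1 replicate 1 it was 0.56 (adjusted p = 0.048). IGFBP5, a binding protein known from the involuting mammary gland, was 4.45 and 4.79 on the controls and 4.48 and 4.69 on the others, and was detected on 1 of the 4 arrays. Its difference was -0.03 ± 0.19 (adjusted p = 0.917). Counted by position alone, 6 members lay above both controls on both shRNA-1 arrays and 2 lay below, against 34.1% and 34.8% of all genes.

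**Figure D1:**
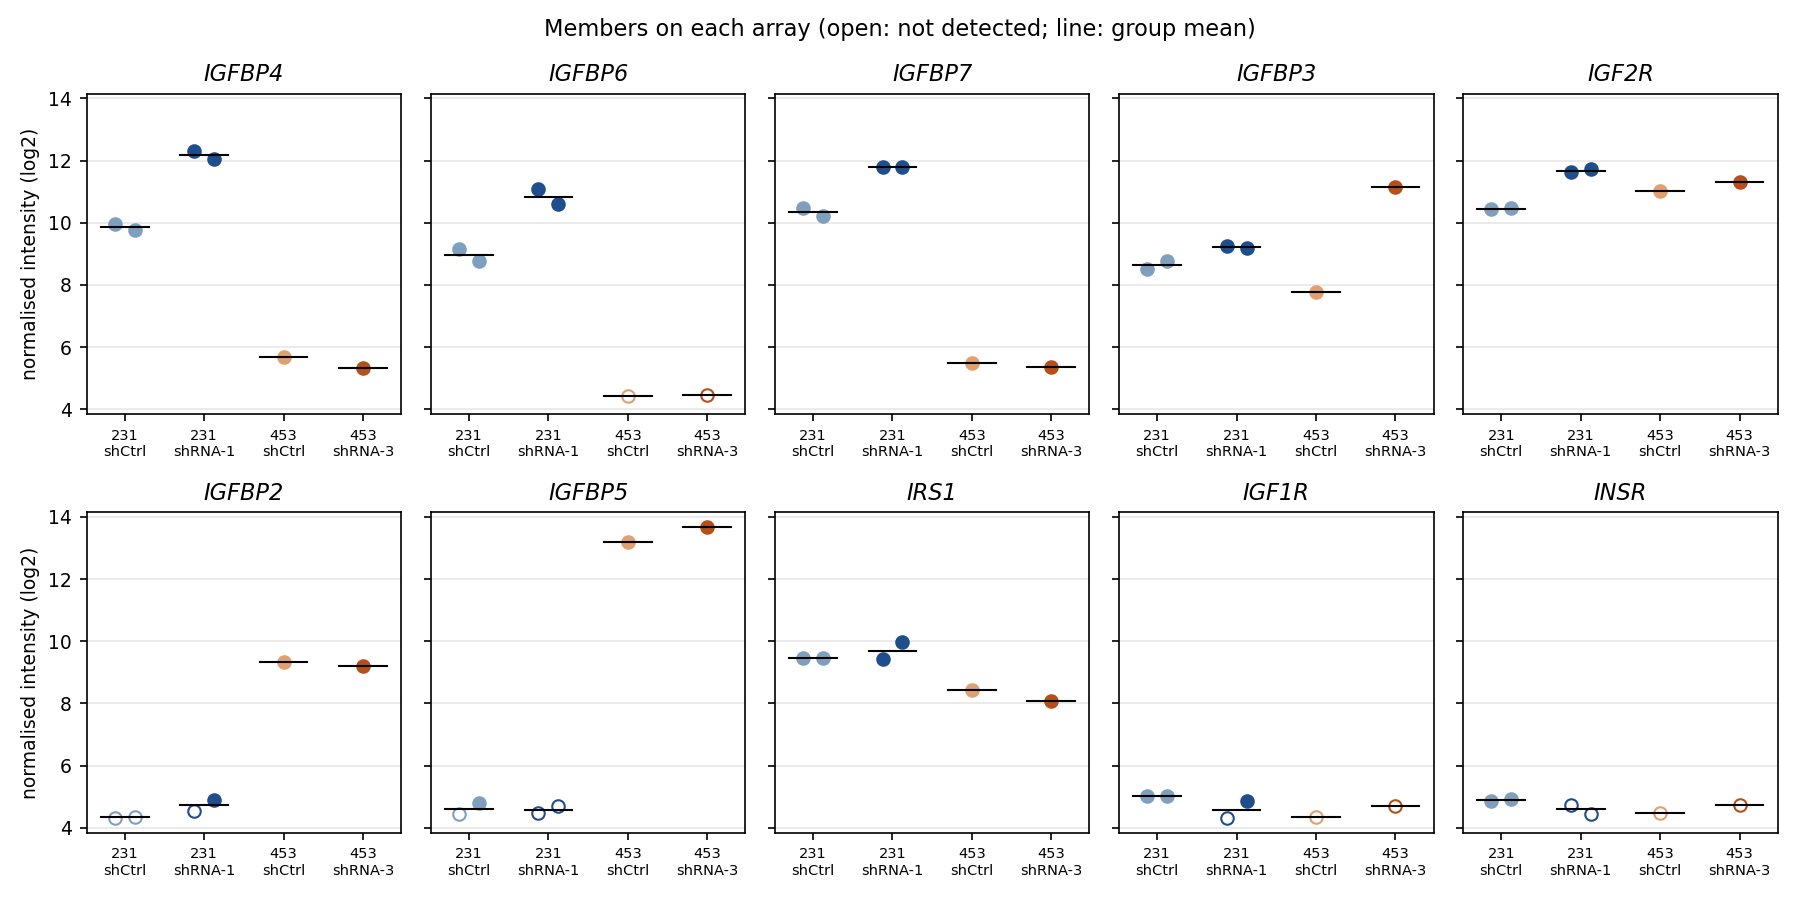
Normalised log2 intensity of each member on the 6 arrays, grouped by cell line and hairpin; filled points were detected, open points were not, and lines are group means. IGFBP4 on the shRNA-1 arrays of MDA-MB-231 sits at 12.32 and 12.06 above controls at 9.95 and 9.78, and IGFBP3 in MDA-MB-453 sits at 11.16 above a control at 7.76.

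In MDA-MB-453 each arm has 1 array, so the differences have no replicate check and no p-value is given. IGFBP3 was 7.76 in the control and 11.16 with shRNA-3, a difference of 3.39. Its raw intensity was 207.1 and 2750, and its other probe read 7.08 and 10.34, a difference of 3.25. Of the 10 members, 1 was higher by 2-fold or more and 0 were lower, where 1.5% of all genes were higher and 1.55% lower by that much.

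IGFBP5 was 13.19 on the control and 13.69 on the shRNA-3 array, a difference of 0.50, and its other probe read 12.64 and 13.42. IGFBP2 was 9.35 and 9.21, IRS1 8.42 and 8.08, and IGF2R 11.03 and 11.31. These differences, between -0.34 and 0.50, were all smaller than 2-fold. IGFBP4 was 5.69 and 5.33 and IGFBP7 5.50 and 5.37, levels close to background, and IGFBP6, IGF1R and INSR were not detected on either array. The median difference was 0.13 over the members and 0.02 over all genes, and under median scaling that of all genes was 0.26.

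**Figure D2:**
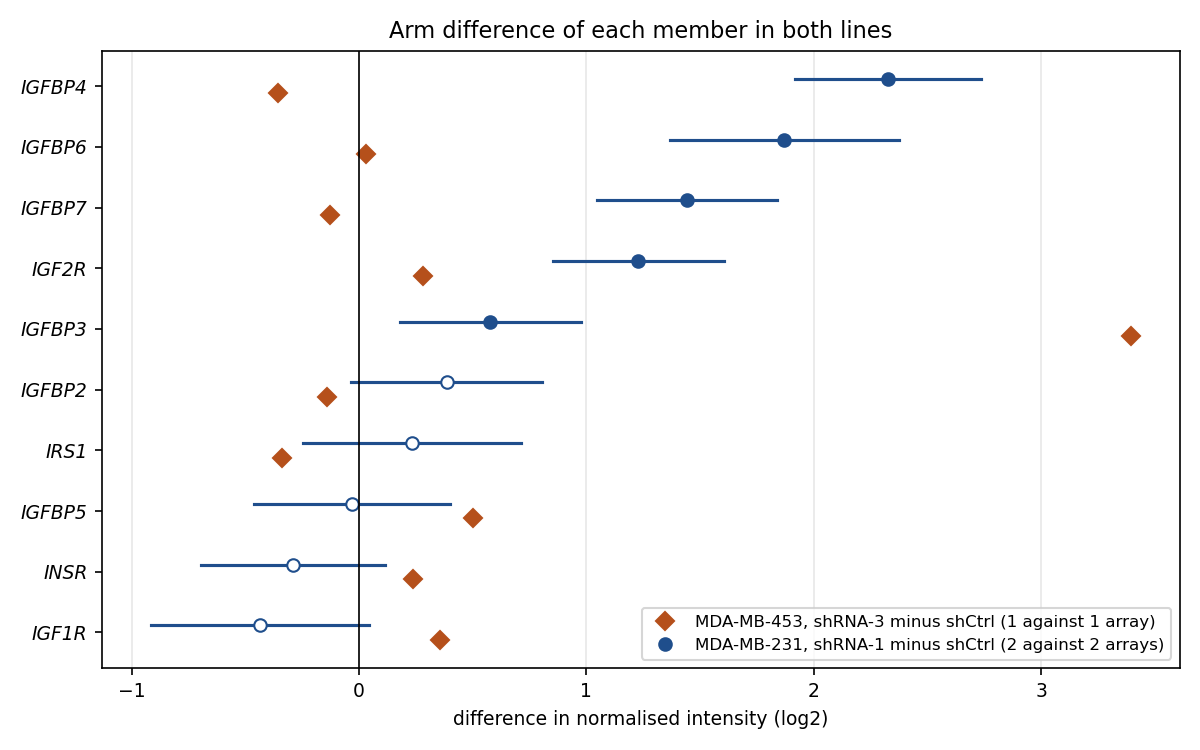
Difference between the arms for each member (labelled knockdown minus control, log2): circles are MDA-MB-231 with 95% confidence intervals from limma, filled where the adjusted p is below 0.05, and diamonds are MDA-MB-453, with 1 array against 1. IGFBP4 has 2.33 in MDA-MB-231 and -0.36 in MDA-MB-453, and IGFBP3 has 0.58 and 3.39.

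The difference between the 2 arm effects was tested as a contrast in the same fit, with the MDA-MB-453 arrays assumed to vary like those of MDA-MB-231. Of the 10 members, 4 passed, 3 with the larger effect in MDA-MB-231 and 1 with the larger in MDA-MB-453, and 6 did not. Among all genes 7.31% passed in the first direction and 6.28% in the other. For IGFBP4 the effects of 2.33 and -0.36 differed by 2.68 ± 0.31 (SE; adjusted p = 0.00106), for IGFBP6 those of 1.87 and 0.03 by 1.84 ± 0.38 (adjusted p = 0.0167), and for IGFBP7 those of 1.44 and -0.13 by 1.57 ± 0.30 (adjusted p = 0.0117). IGFBP3 had the reverse pattern, with effects of 0.58 and 3.39 and a difference of -2.82 ± 0.30 (adjusted p = 7.16e-04). The calls of IGFBP6 and IGFBP7 were lost without control replicate 2, at 1.65 (adjusted p = 0.0705) and 1.45 (adjusted p = 0.0615), which took the count from 4 to 2. IGFBP6 also missed the threshold with no detection filter (adjusted p = 0.0523).

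For IGF2R the effects of 1.23 and 0.28 differed by 0.95 ± 0.29 (95% confidence interval 0.30 to 1.60), which missed the threshold (adjusted p = 0.061) and passed it on the authors' processed values (0.94, adjusted p = 0.027), with a normexp offset of 50 (0.93, adjusted p = 0.0273), with a trend and robust prior (adjusted p = 0.0395) and without shRNA-1 replicate 1 (1.00, adjusted p = 0.0406). Under median scaling it fell to 0.50 (adjusted p = 0.253), and over the other alternatives the adjusted p was 0.0554 to 0.168. The IGF1R difference was -0.79 in the reported fit, which did not pass, and -1.07 without shRNA-1 replicate 2. In the latter the spread came from the MDA-MB-231 controls alone, which were equal. Since hairpin and line changed together, a difference between lines cannot be told apart from one between hairpins. IGFBP6 was not detected in either arm of MDA-MB-453, and IGFBP4 and IGFBP7 were close to background there, so a fall of these 3 genes in that line could not have been measured in full.

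The control arrays of the 2 lines give each member's level without a SETDB1 hairpin. MDA-MB-453 has 1 control array, so these tests set 2 arrays against 1 and take the spread from MDA-MB-231 alone. Of the 10 members, 5 were higher in MDA-MB-231, 3 were higher in MDA-MB-453 and 2 did not pass, where 26% of all genes were higher and 26.9% lower in MDA-MB-231. IGFBP7 was higher in MDA-MB-231 by 4.86 ± 0.21 (SE; adjusted p = 3.49e-07), IGFBP4 by 4.17 ± 0.22 (adjusted p = 9.44e-07) and IGFBP6 by 4.53 ± 0.27 (adjusted p = 2.01e-06). With the reported background correction, on which this bound depends, IGFBP6 was at least 16.7-fold higher, since it was not detected on the MDA-MB-453 control. The same comparison between the hairpin arrays of the lines gave at least 64.8-fold.

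IGFBP2 and IGFBP5, which lie beside each other on chromosome 2, had the opposite pattern. IGFBP2 was at least 23.3-fold higher on the MDA-MB-453 control than on the MDA-MB-231 controls (fitted difference -5.01 ± 0.23; adjusted p = 4.04e-07). IGFBP5 stood at 13.19 against a mean of 4.62, a difference of -8.57 ± 0.23 (adjusted p = 8.08e-08), and its other probe gave -8.37. As IGFBP5 was detected on 1 of the 2 MDA-MB-231 controls, the size of that difference rests in part on background. Against the shRNA-1 arrays, where it was not detected, it was at least 480-fold higher on the MDA-MB-453 shRNA-3 array. With a normexp offset of 50 in place of 16, the fitted differences were -3.66 for IGFBP2, -7.32 for IGFBP5, 3.27 for IGFBP6, 3.50 for IGFBP4 and 4.08 for IGFBP7. All 5 were still past the threshold. Their sizes, and the lower bounds given for IGFBP2, IGFBP5 and IGFBP6, depend on how background is treated.

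The differences of the other members between the lines were smaller. IRS1 was higher in MDA-MB-231 by 1.04 ± 0.26 (adjusted p = 0.00868) and IGFBP3 by 0.88 ± 0.21 (adjusted p = 0.00811). IGF2R was lower there by a difference of -0.58 ± 0.20 (adjusted p = 0.0384), a call that was lost under median scaling (-0.36, adjusted p = 0.187), without control replicate 1 (-0.56, adjusted p = 0.131) and without control replicate 2 (-0.60, adjusted p = 0.113). The IGFBP3 call was lost without control replicate 2 (0.75, adjusted p = 0.0576). For IGFBP3 the order of the group levels ran from the MDA-MB-453 control at 7.76 through the MDA-MB-231 controls at 8.64 ± 0.18 (SD, n = 2) and the MDA-MB-231 shRNA-1 arrays at 9.22 ± 0.06 (SD, n = 2) to the MDA-MB-453 shRNA-3 array at 11.16. For IGF2R it ran from 10.45 ± 0.03 (SD, n = 2) on the MDA-MB-231 controls through 11.03 and 11.31 in MDA-MB-453 to 11.68 ± 0.07 (SD, n = 2) on the MDA-MB-231 shRNA-1 arrays. IGF1R and INSR did not pass (adjusted p = 0.0523 and 0.146). Leaving out 1 shRNA-1 array left the IGF1R difference at 0.68, with the spread taken from the 2 controls alone, both at 5.02.

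**Figure D3:**
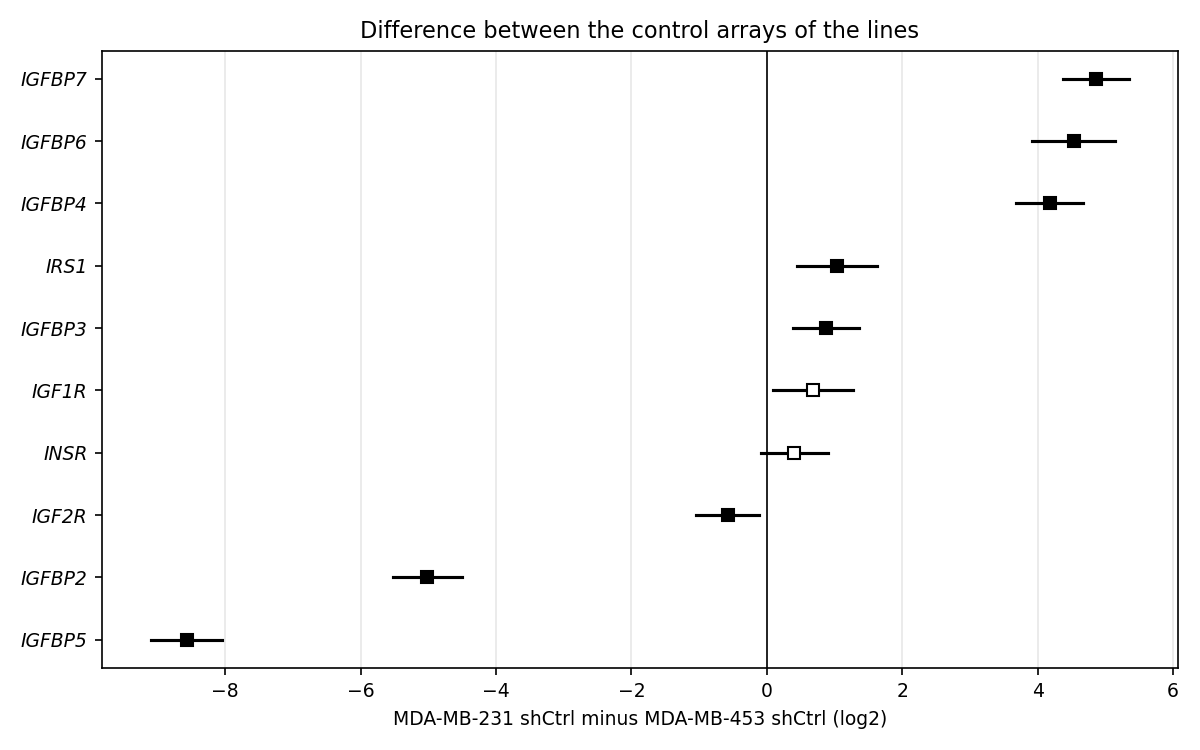
Difference between the control arrays of the lines for each member (MDA-MB-231 minus MDA-MB-453, log2), with 95% confidence intervals from limma; squares are filled where the adjusted p is below 0.05. IGFBP5 lies at -8.57 and IGFBP2 at -5.01, and IGFBP7, IGFBP6 and IGFBP4 lie between 4.17 and 4.86.

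Other genes of the IGF pathway were followed in 8 lists of 114 genes, of which 91 were measured. In MDA-MB-231, 29 of the 91 rose (31.9%) and 12 fell (13.2%), where 19.5% of all genes rose and 19.7% fell, and the median difference was 0.09 against -0.01 over all genes. These counts were 23 and 14 under median scaling, a smaller gap between the directions. Of the ligands and further binding proteins, 4 of 7 were measured, 2 rose (50%) and 0 fell (median 0.50), against 19.5% and 19.7% of all genes. IGFBP1, a binding protein known from the liver, was 5.20 and 5.82 on the controls and 6.43 and 6.58 on the shRNA-1 arrays and rose by 1.00 ± 0.22 (adjusted p = 0.00782). IGFALS, which holds IGF and IGFBP3 in a complex in blood, was not detected on either control. It was 4.83 and 5.09 on the shRNA-1 arrays, close to background, and at least 1.12-fold higher (adjusted p = 0.0179). IGFBPL1 and the orphan receptor INSRR had mean levels of 5.03 and 4.87 on the controls and 5.37 and 4.87 on the shRNA-1 arrays, and neither passed. Neither of 2 IGF1 probes was detected on any array. Of 3 IGF2 probes, 1 was detected on 1 array, shRNA-1 replicate 1 of MDA-MB-231, at 5.58, and the INS probe was detected on 0.

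Proteases that cut binding proteins, and the inhibitors of these proteases, were the list with the highest median, 1.05: of 9 measured, 6 rose (66.7%) and 1 fell (11.1%), against 19.5% and 19.7% of all genes. CTSD, the lysosomal protease cathepsin D, rose from 8.01 to 11.08, by 3.07 ± 0.16 (adjusted p = 3.85e-06). PAPPA, the protease of IGFBP4, was not detected on either control and was at least 6.10-fold higher on the shRNA-1 arrays (fitted difference 2.76; adjusted p = 1.27e-05). HTRA1, a secreted serine protease, rose by 1.37 and MMP7, the matrix protease matrilysin, was at least 1.76-fold higher, whereas the collagenase MMP1 fell by 2.01. PAPPA and MMP7 were kept for testing only through their detection on the shRNA-1 arrays, so neither could have been called lower. Both are in the counts and the median of this list. In MDA-MB-453 the differences of CTSD and HTRA1 were 0.40 and 0.06, and PAPPA was not detected on either array. The one gene of this list past 2-fold there was STC2, an inhibitor of PAPPA, at 7.93 and 9.31.

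Of 7 other proteins with an IGFBP-like domain, 1 rose (14.3%) and 3 fell (42.9%), against 19.5% and 19.7% of all genes (median -0.38). The endothelial proteoglycan ESM1 was at least 28.7-fold lower (adjusted p = 5.53e-07), CCN2, a matricellular growth factor, fell from 12.92 to 11.54, and KAZALD1 fell by 0.54. CCN5 was at least 1.69-fold higher (adjusted p = 0.00256). IGF2BP3, which binds the IGF2 messenger RNA, rose from 7.55 to 9.42 (adjusted p = 7.96e-05), while IGF2BP2 stood at 10.62 and 10.19 and did not pass (adjusted p = 0.0731). IGF2BP2 in MDA-MB-453 was 6.26 on the control and 7.32 on the shRNA-3 array, a difference of 1.06. In the list of surface partners and mannose 6-phosphate sorting, 1 of 7 rose and 1 fell. These shares of 14.3% each lay near the 19.5% and 19.7% of all genes. TMEM219, a receptor for IGFBP3, differed by 0.92, and M6PR, the cation-dependent mannose 6-phosphate receptor, by -0.63.

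Among 22 receptor adaptors and shutoff genes, 4 rose and 2 fell (median -0.04). The share that rose, 18.2%, was close to the 19.5% of all genes, and the share that fell, 9.09%, was below their 19.7%. GRB10, an adaptor that dampens signalling of INSR and IGF1R, rose from 7.33 to 9.60 (2.27 ± 0.18; adjusted p = 3.12e-05), and its difference in MDA-MB-453 was 0.91. GRB7, an adaptor that binds ERBB2, was at least 2.32-fold higher. The cytokine signalling inhibitors SOCS3 and SOCS1 rose by 0.98 and 0.53, the phosphatase gene PTPN11 fell by 0.74 and the adaptor NCK1 fell by 0.63.

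Of 26 genes of PI3K, AKT and mTOR, 6 rose and 4 fell (median -0.05), shares of 23.1% and 15.4% that lay near the 19.5% and 19.7% of all genes. The transcription factors FOXO4 and FOXO1 rose by 1.41 and 0.86, and TSC1 and TSC2, which together restrain mTOR, by 0.97 and 0.91. The phosphatase PHLPP2 fell by 1.52, the kinase GSK3B fell by 1.17 and the regulatory subunit PIK3R1 fell by 0.98, and AKT2 was at least 1.32-fold lower. INPP4B did not pass (adjusted p = 0.186) but in MDA-MB-453 was 6.34 on the control and 7.57 on the shRNA-3 array, a difference of 1.23. Of 14 genes of RAS, RAF and ERK, 8 rose (57.1%) and 1 fell (7.14%), against 19.5% and 19.7% of all genes (median 0.57). SPRY1, DUSP4 and DUSP6, feedback inhibitors of the pathway, rose by 3.48, 2.37 and 1.03, the kinase ARAF rose by 0.89 and MAP2K1 fell by 0.58. In MDA-MB-453 DUSP6 and its fellow inhibitor SPRY4 were lower on the shRNA-3 array, with differences of -1.43 and -1.39.

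**Figure D4:**
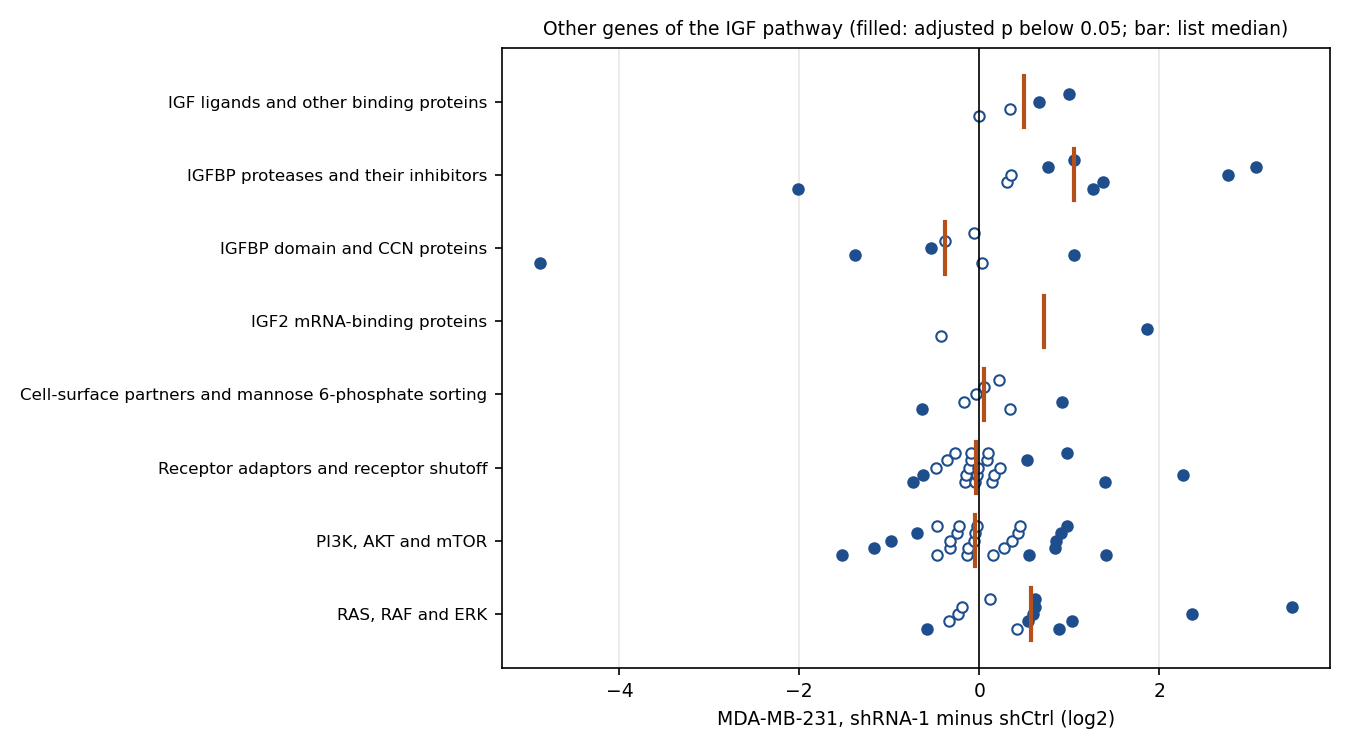
Difference between the arms of MDA-MB-231 (labelled knockdown minus control, log2) for 91 other IGF pathway genes in 8 lists; filled points have a limma adjusted p below 0.05 and bars are list medians. The protease list has the highest median, 1.05, and the domain list the lowest, -0.38.

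Genes around the 4 members with the largest differences in MDA-MB-231 had medians nearer 0. Over the 40 genes ranked 6 to 25 places away on either side, the median difference was 0.02 around IGFBP4 (member 2.33), 0.20 around IGFBP6 (member 1.87) and 0.15 around IGFBP7 (member 1.44). Around IGF2R it was -0.28, opposite in sign to the member's 1.23. Around IGFBP3 it was 0.28, beside the member's 0.58, and around IGF1R, over 29 genes, -0.24, beside the member's -0.44, in both cases with the sign of the member. It was -0.19 around both IGFBP2 (member 0.39) and IGFBP5 (member -0.03), 0.12 around INSR (member -0.29) and -0.13 around IRS1 (member 0.23). The genes with the pattern most like that of IGFBP4, by Euclidean distance of mean-centred log2 values over the 6 arrays, were TOX2 (0.517), IGFBP6 (0.579) and AKR1C3 (0.587). TOX2 had arm differences of 1.98 and -0.23 in MDA-MB-231 and MDA-MB-453. Those nearest to IGFBP3 were ZNF350 (1.18), HSPA2 (1.34) and ACKR3 (1.40), further away than the neighbours of IGFBP4. HSPA2 had arm differences of 1.43 and 1.98.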

How the data were processed

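The authors deposited non-normalized probe intensity values with a detection p-value beside each, per the file headers, and processed log2 values. The latter equal the quantile-normalized log2 intensities without background correction to within 5.26e-09. What made the intensities is not given in the sources used here. Background was corrected with limma 3.58.1 in R 4.3.3 (normexp with negative controls inferred from detection p-values, offset 16), followed by quantile normalization and log2. Probe names came from the platform annotation in GEO, with symbols updated by Entrez identifier in RefSeq's table (GRCh38.p14; 30074 of 30113 probes found). A probe with a detection p below 0.05 is called detected. Probes detected on at least 2 of 6 arrays were kept (17668), and per gene the one of highest mean was tested. Some genes were kept through a single arm of MDA-MB-231, so their difference could be called in a single direction. These include PAPPA, MMP7, CCN5, IGFALS and PDGFRB through the shRNA-1 arrays, and SPARC, ESM1 and INSR through the controls. Where a gene was not detected in a group, its fold is a lower bound, with each dim array raised to its lowest detected value. The bound holds for values with the offset of 16, and other background treatments can give smaller folds.

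limma (lmFit, eBayes, two-sided, Benjamini-Hochberg over 13022 genes) was fitted with a mean per group, leaving 2 residual degrees of freedom, all from MDA-MB-231, and a prior worth 6.54. The smallest p of an exact permutation of 2 against 2 arrays is 0.333, so smaller values rest on the spread shared between genes. No label says that replicates were separate cultures, so the spread may be technical. The same-numbered replicates deviated with a correlation of 0.0714 over genes, so the numbers were not taken as pairs. The members, lists and the rule for named genes (all members, the ligand list, the up to 4 most changed called genes per list and direction, and the 3 genes of most like pattern) were chosen with earlier results of these data known. Genes of the lists without a kept probe were not tested. Of these, only the probes of IGF1, IGF2 and INS are described, and marker genes of this kind enter the summed intensities. List genes past 2-fold in MDA-MB-453 were also named after their values were seen.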

Additional observations from a re-analysis of the deposited data

Results flagged for a closer look

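The arm effect differed between the 2 lines by the limma contrast for 4 members, given as the effect in MDA-MB-231 minus that in MDA-MB-453 on the log2 scale. It was -2.82 for IGFBP3 (adjusted p = 7.16e-04), 2.68 for IGFBP4 (adjusted p = 0.00106), 1.84 for IGFBP6 (adjusted p = 0.0167) and 1.57 for IGFBP7 (adjusted p = 0.0117). IGFBP3 rested on 2 probes that gave -2.82 and -2.68. In each case the MDA-MB-453 effect came from 1 array against 1, and no group has the 4 arrays needed to look for an array that stands apart.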

How the results depend on the processing

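Of 400 values of the 10 members under the alternatives, 379 kept their side of the threshold and 0 called values changed sign. Some of them could not change: the fit of only MDA-MB-231 arrays returns the reported values. So do the MDA-MB-453 differences with no detection filter or with detection on all 6 arrays. IGFBP4, IGFBP6, IGFBP7 and IGF2R passed in MDA-MB-231 under every alternative run for them. The IGFBP3 call there was lost under 4, with 0.44 to 0.70. Leaving out 1 MDA-MB-231 array at a time left 4 to 6 members called in MDA-MB-231, 2 to 5 for the difference between lines, 6 to 9 between the control arrays and 25 to 38 pathway genes. SETDB1 then ranged from -0.19 to -0.12 and did not pass. The counts of all genes called in MDA-MB-231 were 5108 in the reported fit, 3309 without control replicate 1 and 2894 without control replicate 2. The remaining array is assumed there to vary like the other group. With probes detected on all 6 arrays, 5 members were left to test and 5 were called between the control arrays, against 8. Median scaling moved the median of all genes to -0.06 in MDA-MB-231 and 0.26 in MDA-MB-453, to -0.35 for the difference between these and to 0.15 between the control arrays. With the replicate block 5 members and 39 pathway genes were called in MDA-MB-231, 4 members for the difference between lines and 7 between the control arrays, where IGF2R was lost (-0.62, adjusted p = 0.0513). The number of arrays limits the precision, and the nearness of IGF1R and INSR to background limits theirs.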
